A study of Mus musculus with 6 samples.

Results

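The MLX, MYC and MAX network is a family of transcription factors that bind DNA in pairs. Its genes were taken as the 10 rows of the expression table whose symbol is Mlxipl, Mlxip, Mlx, Max, Myc, Mxd1, Mxi1, Mxd3, Mxd4 or Mnt, out of 19844 genes in all. All 10 rows were found, and all 10 passed the filter on low values. The samples were bulk distal colon from 6 mice of strain C57BL6, taken on day 17 of treatment with azoxymethane and dextran sulfate sodium, which are a carcinogen and an irritant of the colon epithelium. The 3 controls were wild type with the same treatment, and the other 3 mice carried a knockout of ChREBP, the protein encoded by Mlxipl. No source used here gives the allele, the exons removed, the tissues in which the gene was deleted or the age of the mice. An untreated group was not analysed here, so the comparison is of genotype within treated colon.

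MYC, the MXD proteins, MXI1 and MNT bind E-boxes, with the core CACGTG, after pairing with MAX. MYC pairs activate growth genes, whereas MXD, MXI1 and MNT pairs recruit the SIN3 and histone deacetylase corepressor and oppose MYC at the same sites. MLX is a second hub that pairs with the glucose sensors ChREBP and MondoA (encoded by Mlxip) and with some of the MXD proteins and MNT. In the intestine, Myc is a Wnt target of dividing crypt cells, and MXD1 is known from cells that have stopped dividing and differentiate.

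The promoters are shown because the factors of this network share 1 DNA motif, and because Mlxipl has 2 known start sites behind a single expression value. RefSeq promoter sequences of build GRCm38.p6, from 250 bases before to 50 after each start, were held for 9 of the 10 genes (12 promoters). Myc was the gene not matched. The mm39 build named in the submitters' processing notes is a different one, so these coordinates are those of the promoter table. A search for CACGTG, which reads the same on both strands, found it in 5 of the 9 genes (55.6%), against 8.09% of 27025 genes in the promoter table and 11.5% of the 10463 tested genes that the table holds. The same search found it in 24.0% of 25 MYC target genes and in 15.0% of 20 ChREBP and MondoA target genes, but in 1 of 14 SIN3 and histone deacetylase complex genes and in 0 of 10 related basic helix-loop-helix zipper genes. Each stretch below is the E-box, in capitals, with the 12 bases on either side, 5′ to 3′ on the strand of the gene.
Mlx, chr11:101087238-101087267, plus strand: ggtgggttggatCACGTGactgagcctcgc
Max, chr12:76962234-76962263, minus strand: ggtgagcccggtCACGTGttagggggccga
Mxd4, chr5:34187912-34187941, minus strand: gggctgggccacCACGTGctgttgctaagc
Mnt, chr11:74830789-74830818, plus strand: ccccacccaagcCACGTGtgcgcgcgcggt
Mlxipl, upstream start, chr5:135089780-135089809, plus strand: gcggctgccatcCACGTGctaaggagagaa
The first base of the E-box lay 40 bases upstream of the start of Mlx, 3 of Max, 219 of Mxd4, 123 of Mnt and 98 of the upstream Mlxipl start. Both hub genes, Mlx and Max, therefore carried the letters of the network's own motif close to their start. A match describes these letters and is not a measured binding site.

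**Figure D1:**
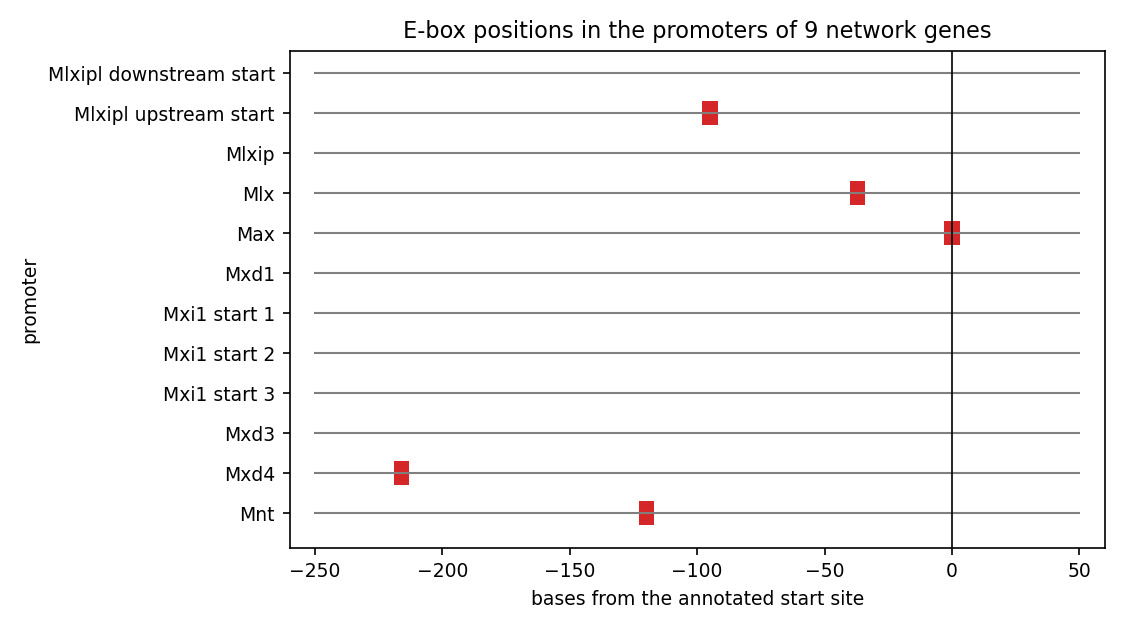
Each line is the promoter window of 1 start site, from 250 bases before to 50 after it, and each red block is a CACGTG motif (6 bases wide, plotted to scale). The motif appears in 5 of 12 promoters, nearest to the start in Max and Mlx.

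The 2 Mlxipl starts lay 17001 bases apart on chromosome 5. The downstream start begins the long form of ChREBP, and the upstream one a shorter form, known in other tissues to be switched on by ChREBP itself. The 250 bases before each start, on the plus strand with any CACGTG in capitals, were as follows.
Mlxipl upstream start, chr5:135089640-135089889: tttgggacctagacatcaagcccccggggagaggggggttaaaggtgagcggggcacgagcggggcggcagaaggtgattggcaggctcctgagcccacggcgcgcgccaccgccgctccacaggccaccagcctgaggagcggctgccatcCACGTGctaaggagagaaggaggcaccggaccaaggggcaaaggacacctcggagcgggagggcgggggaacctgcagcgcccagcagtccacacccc
Mlxipl downstream start, chr5:135106641-135106890: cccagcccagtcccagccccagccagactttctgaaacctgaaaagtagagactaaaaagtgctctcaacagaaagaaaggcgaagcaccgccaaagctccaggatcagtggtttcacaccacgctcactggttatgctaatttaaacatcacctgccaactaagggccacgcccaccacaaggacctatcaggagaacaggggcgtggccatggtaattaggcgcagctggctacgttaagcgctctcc
The row for Mlxipl in the deposited table lists 1 transcript, NM_021455, whose start in the GENCODE M21 annotation of the same build lies 27 bases after the downstream start. The short form has no value of its own, and fragments from exons that both forms share can be counted in this row, so the row does not separate them.

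Expression is given as FPKM, fragments scaled by transcript length and by library depth, so genes can be compared within a library. Depth was estimated from short genes at between 17575000 and 18400000 fragments per library. The labels call all 6 mice female, yet the Y-linked gene Ddx3y read between 9.51 and 12.11 FPKM and Xist, the RNA of the inactive X chromosome, between 0.02 and 0.04 in every library. The defining colon epithelium markers were all present (10 of 10 tested), whereas the adipocyte list had 1 and the hepatocyte list 2 tested genes. Smooth muscle markers summed to 4350 FPKM in knockout replicate 3, against 2664 to 3637 in the other libraries. Goblet cell markers were lowest there (7823 against 10418 to 13600), as were enteroendocrine markers (268 against 437 to 554). The part of this mix of cells in the network values was not tested. Clock genes differed between libraries and leaned lower in knockout: 12 of 17 tested had negative fold changes, with a median of -0.64 on the log2 scale, and 0 passed (smallest limma adjusted p = 0.591). The 5 with positive fold changes included Npas2 (0.90), Arntl (0.80) and Nfil3 (0.70), named after their values were seen. Usp2, a clock-controlled deubiquitinase, read 14.28, 16.07 and 8.99 FPKM in the wild types against 3.94, 5.10 and 5.20 in knockout, and the clock repressor Cry2 9.11, 10.68 and 7.17 against 4.29, 4.13 and 6.21, both without overlap. Wild-type replicate 3 was the lowest of the wild types in both. Dbp, a clock output factor named after its values were seen, read 57.41 and 43.06 FPKM there, 0.95 in wild-type replicate 3, and 5.77, 0.94 and 6.14 in knockout replicates 1 to 3. The part of the clock in any result was not tested. In bulk tissue, fewer cells of a type and less RNA per cell cannot be told apart.

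The levels of the 10 genes spanned a wide range, from Mxd1 at a mean of 186 FPKM over the 6 libraries to Mxd3 at 2.67. Mxd1 exceeded 98.2% of all genes of the table by its mean, and Max, at 136 FPKM, exceeded 97.5%. Mlx followed at 63.8, then Mxd4 at 28.3, Mlxip at 28.2, Myc at 19.9, Mxi1 at 14.4, Mnt at 10.3 and Mlxipl at 5.78 FPKM. In this order Mxd4 and Mlxip were 0.125 FPKM apart, less than the SD of 2.89 over libraries, and did not differ beyond their spread. The value ranges of Myc and Mxi1, of Mxi1 and Mnt, and of Mlxipl and Mxd3 overlapped, although Myc was above Mxi1 and Mxi1 above Mnt in 6 of 6 libraries each. Every other neighbour in the order was separated without overlap.

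**Figure D2:**
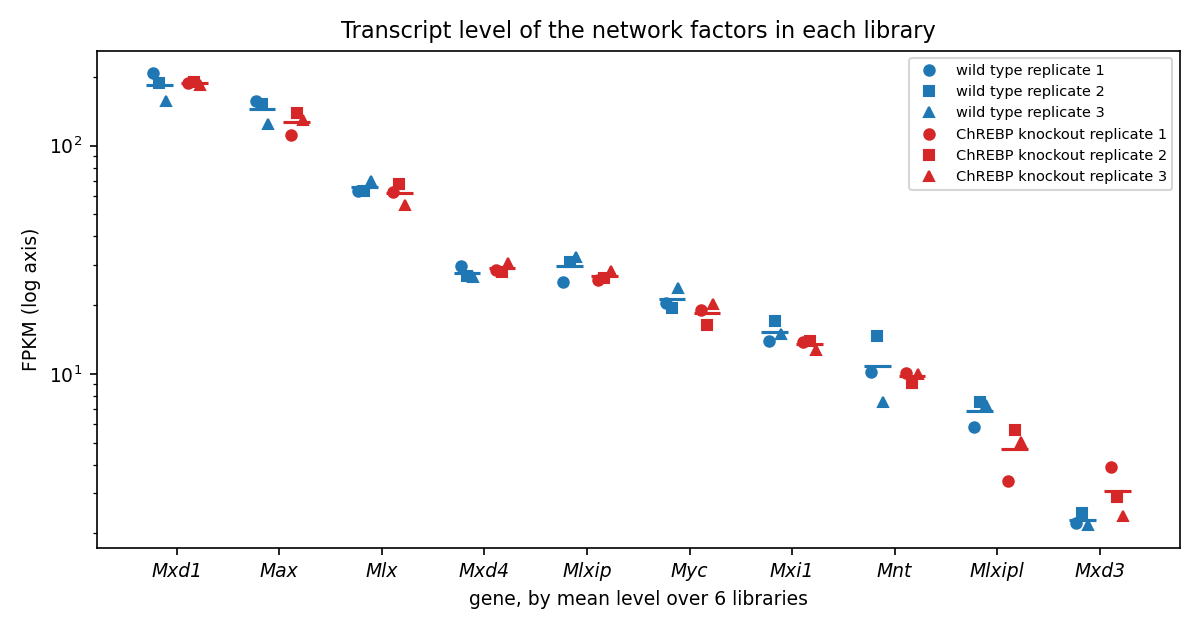
FPKM on a log axis for each of the 10 genes, with 3 wild-type libraries in blue, 3 knockout libraries in red and a bar at each group mean. Mxd1, between 157.06 and 207.39 FPKM, is the highest in both groups, and Mxd3, between 2.17 and 3.90, is the lowest in both group means.

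Knockout and wild type were compared with limma on log2(FPKM + 1) over 13247 genes, with Benjamini-Hochberg adjustment. None of the 10 network genes passed an adjusted p of 0.05 (limma adjusted p = 0.9995 for each), against 2 of 13247 genes (0.0151%, or 0.00755% in each direction). At an unadjusted p under 0.05, 1 of the 10 was found, Mlxipl, where 3.40% of all genes tested were, 1.70% with a lower level in knockout. Its groups were also the 1 pair of 10 without overlap, against 8.67% of all genes in either direction, 4.14% lower and 4.53% higher in knockout. Fold changes were negative for 7 and positive for 3 of the 10, with a median of -0.11 on the log2 scale, while 47.3% of all genes tested were negative, with a median of 0.01. For all 10 the 95% interval lay within a 2-fold change either way with 1 FPKM added. For Mlxipl it passed that bound in 4 alternatives, reaching -1.04 with 0.1 FPKM added, -1.04 without wild-type replicate 1, -1.03 without knockout replicate 2 and -1.02 without knockout replicate 3. The interval of Mlxipl reached positive values without wild-type replicate 2 (up to 0.066), wild-type replicate 3 (0.044) or knockout replicate 1 (0.036). Because 1 FPKM is added before the logarithm, fold changes of the lowest genes, Mxd3 above all, come out too small. These intervals bound the differences and do not show that the genotypes were alike.

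**Figure D3:**
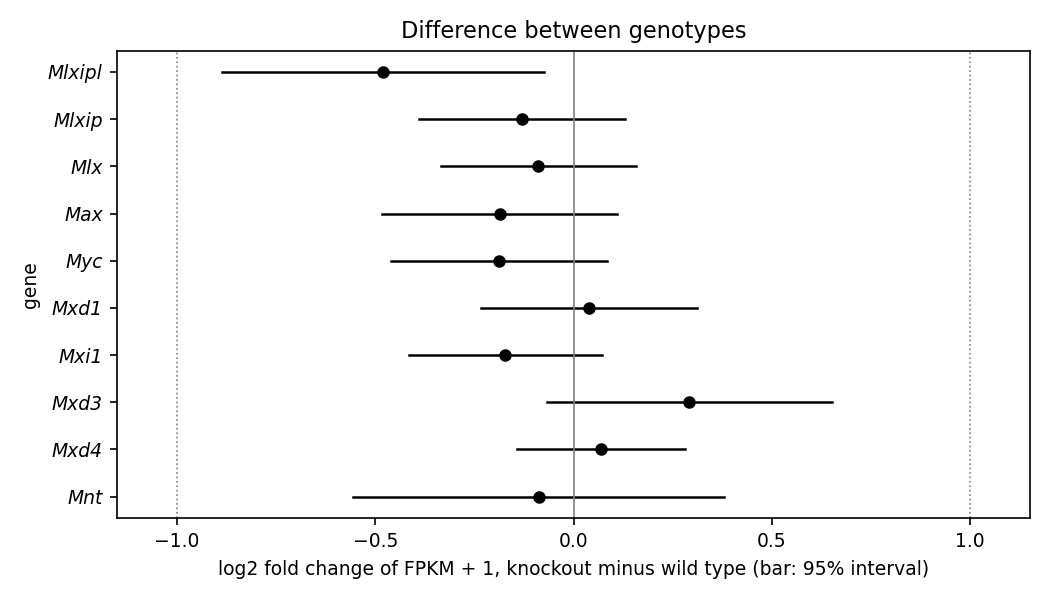
Points are limma log2 fold changes of FPKM + 1, knockout minus wild type, and bars their 95% intervals, with dotted lines at a 2-fold change. The interval of Mlxipl, from -0.89 to -0.07 in this main fit, is the 1 that leaves out 0.

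Among the glucose-sensing factors, Mlxipl (NCBI gene 58805), the targeted gene, read 5.84, 7.49 and 7.27 FPKM in wild-type colons and 3.40, 5.66 and 5.04 in knockout. Every knockout library was below every wild-type library, and knockout replicate 1 was the lowest of all. The means were 6.87 ± 0.896 (SD, n = 3) and 4.70 ± 1.17 (SD, n = 3), a log2 fold change of -0.48 (SE 0.18), and the gene ranked 210 by p among those tested (limma unadjusted p = 0.0258). Without knockout replicate 1 the log2 fold change of Mlxipl was -0.30 (limma unadjusted p = 0.0725). It was -0.42 without wild-type replicate 2 (limma unadjusted p = 0.0806) and -0.44 without wild-type replicate 3 (limma unadjusted p = 0.0687). The limma unadjusted p was 0.0214 without wild-type replicate 1, 0.0135 without knockout replicate 2 and 0.0354 without knockout replicate 3. Converted with the transcript length of 3622 bases and the estimated depth, these levels stand for about 227 to 477 fragments per library, so counting alone gives an error near 5.16%. The spread between knockout libraries, 24.8% of their mean, was larger than that. The level is one value for the whole transcript and does not say which exons of Mlxipl remain in the knockout RNA.

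Mlxip (NCBI gene 208104), which encodes MondoA, the paralog that senses glucose 6-phosphate, read 25.38, 31.02 and 32.36 FPKM in wild-type colons and 25.85, 26.43 and 28.19 in knockout. The knockout values lay within the wild-type range, with means of 29.6 ± 3.70 and 26.8 ± 1.22 and a log2 fold change of -0.13 (95% interval -0.39 to 0.13), which was -0.064 without wild-type replicate 3 and -0.23 without wild-type replicate 1. Mlxip was thus present at between 4.14 and 4.45 times the level of Mlxipl in wild type and at 7.60, 4.67 and 5.59 times in knockout replicates 1 to 3. As a share of both genes' summed FPKM, Mlxipl made up 18.8% ± 0.563 in wild-type colons and 14.8% ± 3.02 in knockout, and the groups did not overlap. That share follows from the fall in Mlxipl values already described and is no separate test. In the main fit the 95% interval of Mlxip reached up to a 1.09-fold higher level in knockout, a log2 fold change of 0.13. The upper end moved to 0.23 without wild-type replicate 2 and to 0.028 without wild-type replicate 1.

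Txnip and Arrdc4, alpha-arrestin genes that MondoA and ChREBP are known to activate, were named after their values were seen. Txnip was lowest in wild-type replicate 1 and knockout replicate 1, at 247.61 and 250.80 FPKM, against 328.49 to 417.06 in the other 4 libraries. Arrdc4 was lowest in the same 2 libraries, at 25.28 and 29.55, against 36.87 to 40.80. Mlxip had its lowest 2 values in those libraries as well. These libraries belong to different genotypes, so the shared low values divide mice within each group and not the groups. Of the 24 fixed ChREBP and MondoA targets 19 were tested, 0 passed in either direction, and 10 fold changes were positive and 9 negative, with a median of 0.02. The list as a whole did not share the low values of Txnip and Arrdc4. Relative to each gene's mean over the 6 libraries, its median was 0.006 in wild-type replicate 1 on the log2 scale. It was highest in knockout replicate 1 (0.07) and lowest in wild-type replicate 3 and knockout replicate 2 (-0.11 in each). Pdk4, an inhibitor of glucose oxidation, was at 1.75 ± 0.202 FPKM in wild-type colons and 2.62 ± 1.41 in knockout, and the acetyl-CoA carboxylase gene Acacb at 1.45 ± 0.208 and 1.79 ± 0.593, and both pairs of groups overlapped.

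The hub gene Mlx (NCBI gene 21428) read 63.48, 63.40 and 70.25 FPKM in wild-type colons and 62.81, 67.91 and 54.88 in knockout. The groups overlapped, and the log2 fold change was -0.09 (95% interval -0.33 to 0.16). It was -0.0070 without knockout replicate 3, -0.041 without wild-type replicate 3 and -0.16 without knockout replicate 2. Mlx was present in 1.65 to 2.15 times the summed level of Mlxipl and Mlxip, so its transcript exceeded those of both partners together in each of the 6 libraries. Its level is a property of the RNA and does not give the amount of protein pairs.

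The other hub, Max (NCBI gene 17187), read 156.94, 152.19 and 124.31 FPKM in wild-type colons and 111.61, 139.26 and 129.20 in knockout. Wild-type replicate 3 fell among the knockout values, so the groups overlapped. The means were 144 ± 17.6 and 127 ± 14.0, a log2 fold change of -0.19 (95% interval -0.48 to 0.11). It was -0.099 without knockout replicate 1, -0.12 without wild-type replicate 1 and -0.29 without wild-type replicate 3. Max stood at 5.22 to 8.48 times the level of Myc. Set against the summed FPKM of Myc and the 5 antagonist genes Mxd1, Mxi1, Mxd3, Mxd4 and Mnt, Max came to 0.553, 0.568 and 0.536 in wild type and 0.425, 0.533 and 0.495 in knockout. The knockout ratios were all below the wild-type ones, by 0.00288 between the nearest libraries, far less than the SD of 0.0548 in knockout. The ratio is a description and was not tested.

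**Figure D4:**
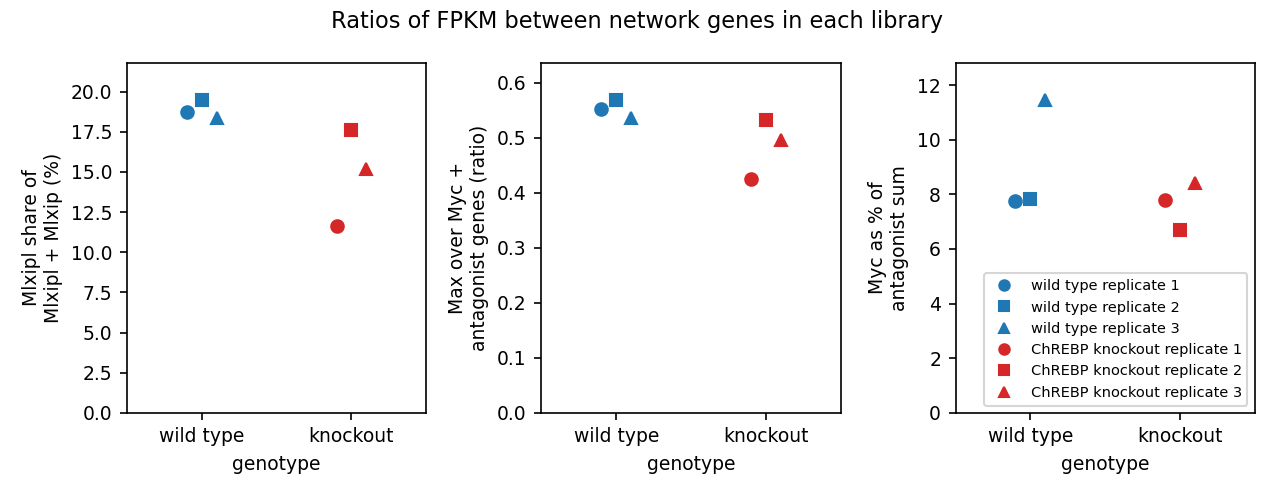
Each point is 1 library, with axes from 0: the share of Mlxipl in the summed FPKM of Mlxipl and Mlxip, Max over the summed FPKM of Myc and 5 antagonist genes, and Myc as a percentage of the antagonist sum. Knockout replicate 1 is the lowest point of the first and second panels, at 11.6% and 0.425, and wild-type replicate 3 the highest of the third, at 11.4%.

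Myc (NCBI gene 17869), the activator of the network and a driver of colon tumours, read 20.47, 19.48 and 23.82 FPKM in wild-type colons and 18.96, 16.42 and 20.21 in knockout. The highest value was in wild-type replicate 3 and the lowest in knockout replicate 2, and the other 4 libraries overlapped. The log2 fold change was -0.19 (SE 0.12), and -0.11 without either wild-type replicate 3 or knockout replicate 2. With about 688 to 987 estimated fragments (from the lengths of 2 of its 4 listed transcripts), counting error was near 3.46% per library, below the spread of 10.7% in wild type and 10.4% in knockout. Crypt base and progenitor markers summed to between 126.6 and 130.5 FPKM in the wild types and between 113.3 and 118.3 in knockout, without overlap. The largest part of that sum was Slc12a2, at 52.81 to 56.84 FPKM in the wild types and 48.72 to 52.37 in knockout. Of the 7 markers tested, 6 had negative fold changes, with a median of -0.12, and 0 passed. Ascl2, a factor of crypt stem cells, was at 5.44 ± 0.823 FPKM and 3.43 ± 0.325, without overlap. The stem cell receptor gene Lgr5 was at 2.64 ± 0.727 and 1.75 ± 0.110, and its groups overlapped. Smoc2, Axin2 and Cd44, named after their values were seen, overlapped as well, and the fold change of Cd44 was positive (0.02). The part of crypt cells in the Myc values was not tested.

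MYC target genes, many of them ribosome-building and nucleotide synthesis genes, were read beside it. All 30 fixed targets were tested and 0 passed, with 16 positive and 14 negative fold changes and a median of 0.00. Tfrc, the transferrin receptor, had the smallest p, at 37.1 ± 7.87 FPKM in wild-type colons and 27.2 ± 2.25 in knockout, without overlap. It was followed by the nucleotide synthesis gene Ppat (9.64 ± 1.08 and 8.20 ± 0.924) and the ribosome assembly gene Wdr12 (3.24 ± 0.588 and 4.10 ± 0.890), whose groups overlapped. Across libraries the targets did not follow the order of Myc. Wild-type replicate 3 had the highest Myc, yet 14 of the 30 targets had their lowest value there and 0 their highest. Knockout replicate 2, with the lowest Myc, held the lowest value of 11 targets, and knockout replicate 1, with intermediate Myc, the highest value of 17. Relative to each gene's mean over the 6 libraries, the median target was at -0.27 in wild-type replicate 3 and -0.23 in knockout replicate 2 on the log2 scale, against 0.18 in knockout replicate 1. The median of the clock list was also lowest in wild-type replicate 3 and knockout replicate 2 (-0.54 and -0.56 on the same scale). Arntl, Npas2, Nfil3 and Cry1 instead had their highest values in these libraries. Arntl read 26.90 and 26.30 FPKM there, against 6.33 to 19.07 in the others. The median of the macrophage markers was highest in the same libraries (0.34 in each). The part of clock genes and macrophages in the target levels was not tested.

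The other MYC genes were low. Mycl read 8.24 ± 0.339 FPKM in wild-type colons and 7.5 ± 0.737 in knockout, and Mycn 1.28 ± 0.0802 and 0.937 ± 0.110. The 3 Mycn values were 1.36, 1.27 and 1.2 in wild type and 1.01, 0.99 and 0.81 in knockout, which do not overlap, but the gene did not pass the test (log2 fold change -0.23, limma adjusted p = 0.9995). Its 3 wild-type values were enough to pass the filter of 1 FPKM. Knockout replicate 1 was just above that level at 1.01, and knockout replicates 2 and 3 fell under it, so the gap is given as values only. Of all genes tested, 4.14% were lower in knockout without overlap. Of 12 listed basic helix-loop-helix zipper relatives, these included, 10 were tested and 0 passed, with a median log2 fold change of 0.03. Tfeb, a lysosome regulator, read 10.8 ± 0.225 and 9.26 ± 1.11. Of 16 MYC coactivator and turnover genes 0 passed and 10 fold changes were positive, with the acetyltransferase gene Kat5 at 16.8 ± 2.05 and 20.0 ± 1.14 FPKM and the MYC partner Zbtb17 at 5.25 ± 0.153 and 6.01 ± 0.615. Usp28, a deubiquitinase that stabilises MYC, was at 7.74 ± 1.51 and 6.40 ± 1.17.

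Among the antagonists, Mxd1 (NCBI gene 17119) dominated. It read 207.39, 187.60 and 157.06 FPKM in wild-type colons and 187.55, 190.99 and 184.98 in knockout, and made up between 75.4% and 78.8% of the summed FPKM of the 5 antagonist genes. Wild type held both the highest and the lowest value, while the 3 knockout libraries lay close together (SD 3.02, against 25.4 in wild type). The log2 fold change was 0.04 (95% interval -0.23 to 0.31), and it turned to -0.07 without wild-type replicate 3. Mxd1 was at 6.59 to 11.6 times the level of Myc. Surface colonocyte markers, from the differentiated cells of the colon surface, were set beside it. Of 9 tested, 6 had negative fold changes, with a median of -0.12, and 0 passed. Their summed level, 14264 to 15649 FPKM in the wild types and 14747 to 16061 in knockout, was mostly that of Lypd8, at 10813 to 12422 FPKM. Their part in the Mxd1 values was not tested.

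Mxi1 (NCBI gene 17859) read 13.94, 16.98 and 15.02 FPKM in wild-type colons and 13.73, 13.94 and 12.68 in knockout. The lowest wild-type and the highest knockout library had the same value, so the groups touched. The log2 fold change was -0.17 (95% interval -0.42 to 0.07). Mxd4 (NCBI gene 17122) had the smallest spread of the 10 over the 6 libraries, a root mean square deviation of 0.0704 on the log2 scale, at 29.62, 26.81 and 26.49 in wild type and 28.49, 28.03 and 30.54 in knockout. Its fold change of 0.07 on the log2 scale had an interval from -0.14 to 0.28.

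Mxd3 (NCBI gene 17121), the MXD member known from dividing cells in S phase, was higher in knockout replicates 1 and 2 than in wild type. It read 2.22, 2.46 and 2.17 FPKM in wild-type colons and 3.90, 2.90 and 2.39 in knockout, and knockout replicate 3 fell within the wild-type range. The means were 2.28 ± 0.155 and 3.06 ± 0.768, a log2 fold change of 0.29 (SE 0.16, limma unadjusted p = 0.0980). Without knockout replicate 1 it was 0.15 (limma unadjusted p = 0.327). These values rest on about 51 to 95 estimated fragments per library, with a counting error near 12.5%. Cell cycle genes leaned the same way: 17 of 20 fold changes were positive with a median of 0.19, and 0 passed. The mitotic cyclin gene Ccnb2 read 12.32, 11.19 and 12.23 in wild type and 21.24, 16.77 and 14.72 in knockout, and Ccnb1 9.90, 8.91 and 10 and then 14.68, 13.02 and 10.58. In knockout both cyclins had the same order of libraries as Mxd3, highest in replicate 1 and lowest in replicate 3. In wild type the order differed, with Mxd3 highest in replicate 2 and both cyclins lowest there. Within knockout, the replication genes Mcm2 and Pcna, named after their values were seen, were instead lowest in replicate 2 (8.35 and 66.81 FPKM). Over all libraries both were lowest in wild-type replicate 3 (6.42 and 48.76 FPKM). Ccne1, Ccne2 and Tyms were the 3 cell cycle genes with negative fold changes (-0.24, -0.28 and -0.01). The part of cell division in the Mxd3 values was not tested.

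Mnt (NCBI gene 17428), the broadly expressed antagonist, varied most among the wild-type mice. It read 10.16, 14.65 and 7.56 FPKM in wild-type colons and 10.12, 9.16 and 10.01 in knockout. All 3 knockout values lay inside the wild-type range, and the SD was 33.2% of the mean in wild type and 5.38% in knockout, with counting error near 3.44%. The log2 fold change of -0.09 turned to 0.14 without wild-type replicate 2. B cell genes, named after their values were seen, had the same highest and lowest libraries. Cd79a, part of the B cell receptor, read 42.15, 59.75 and 11.23 in wild type and 36.50, 34.87 and 28.19 in knockout, and Ms4a1, which encodes CD20, 10.09, 15.44 and 1.60 and then 9.62, 5.37 and 5.48. Over all 8 genes of the B and plasma cell list, the median deviation from each gene's mean was 0.27, 0.49 and -0.42 in wild-type replicates 1 to 3 and 0.19, 0.16 and -0.28 in knockout, again highest in wild-type replicate 2 and lowest in wild-type replicate 3. The list's summed level did not show this, at 473 to 485 FPKM in the wild types and 231 to 512 in knockout. The plasma cell gene Jchain made up most of that sum, with 305.03, 286.17 and 343.16 and then 173.31, 361.40 and 110.51. The part of B cells in the Mnt values was not tested.

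Summed over the 5 antagonists, the level was 263, 248.5 and 208 FPKM in wild-type colons and 244, 245 and 241 in knockout. Myc came to 7.77%, 7.84% and 11.4% of that sum in wild type and to 7.78%, 6.70% and 8.40% in knockout. The groups overlapped, and the highest share was in wild-type replicate 3, which had the highest Myc and the lowest Mxd1 of the 6 libraries. Without Mxd1 the other 4 antagonists summed to between 51.2 and 60.9 FPKM, and Myc to between 0.304 and 0.465 of them.

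**Figure D5:**
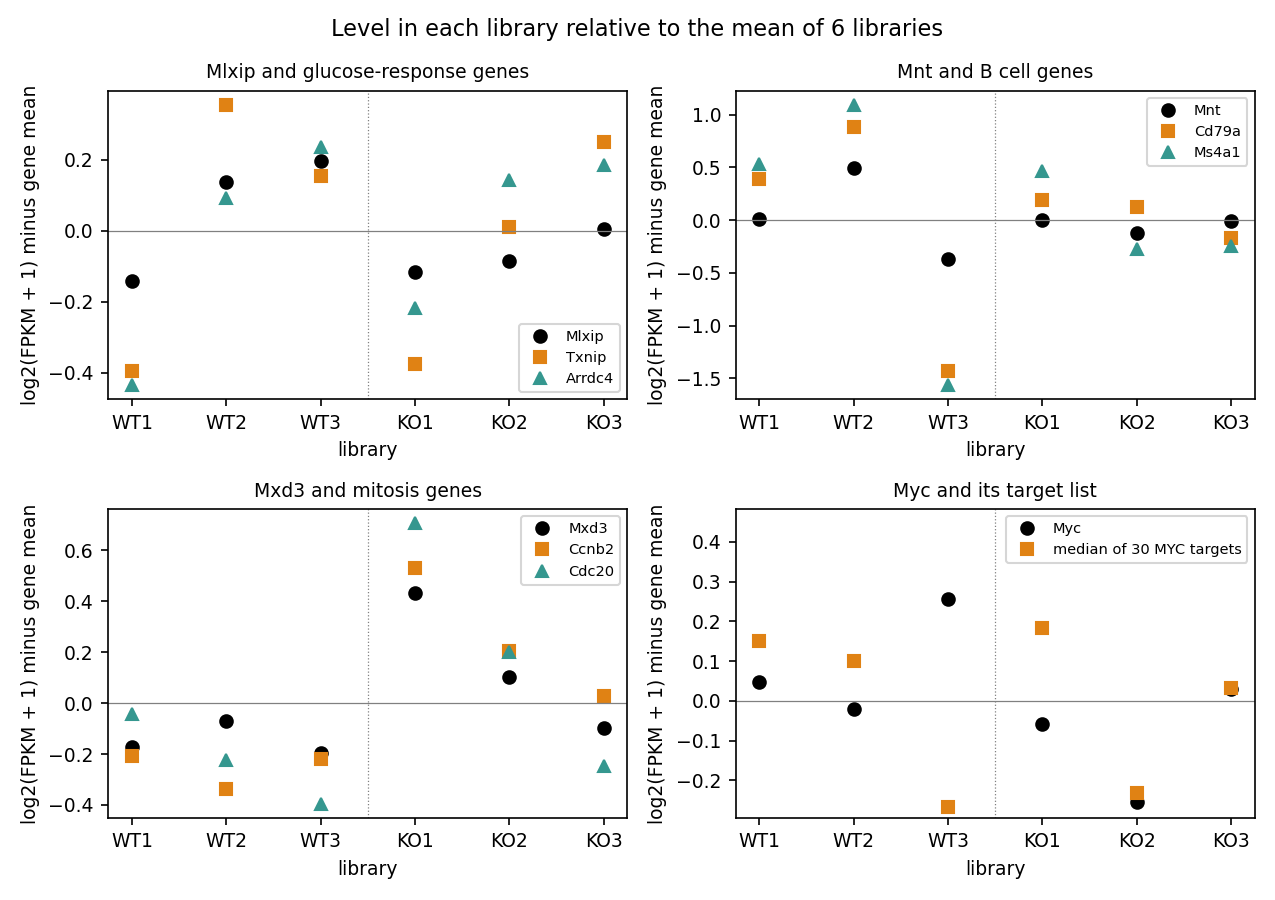
Each panel plots log2(FPKM + 1) minus the gene's mean over 6 libraries, for 3 wild-type (WT) and 3 knockout (KO) libraries; the fourth panel sets Myc beside the median of 30 MYC targets. Mnt and the B cell genes are highest in WT2 and lowest in WT3, Mxd3 and the mitosis genes are highest in KO1, and the MYC targets are at -0.27 in WT3 where Myc is highest.

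The corepressor that MXD, MXI1 and MNT recruit was expressed throughout. All 19 listed SIN3 and histone deacetylase complex genes were tested, 0 passed, and 13 fold changes were negative, with a median of -0.07. Sin3a, the scaffold, was at 18.2 ± 2.66 FPKM in wild-type colons and 14.8 ± 1.16 in knockout, and its groups overlapped. The subunit gene Arid4a was at 11.1 ± 1.65 and 8.65 ± 0.375, without overlap between groups. Sap30l was at 14.9 ± 1.04 and 13.0 ± 1.09, and its groups touched at 13.98 FPKM.

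The genes whose profile over the 6 libraries was most like that of Mlxipl were sought among 9228 genes with a mean of at least 5 FPKM, by the root mean square distance between centred log2(FPKM + 1) values. They were Nr5a2, a nuclear receptor of gut epithelium, at a distance of 0.0981, then Vdr, the vitamin D receptor, at 0.106, Trp53inp1 at 0.112, Chka at 0.120 and Airn at 0.123, where the profile of Mlxipl itself spreads by 0.316 about its mean. Vdr read 137.27, 141.59 and 139.03 FPKM in wild-type colons and 82.23, 125.27 and 119.89 in knockout. Nr5a2 read 13.40, 15.95 and 16.63 and then 8.73, 12.20 and 13.65. All 5 were lowest in knockout replicate 1, as Mlxipl was, which follows from their choice by likeness of profile. For Myc the nearest profiles were those of Atp13a3 (0.0203), Stk4 (0.0239), Kdm5a (0.0282), Garem (0.0286) and Kpna6 (0.0301), against a spread of 0.151 for Myc. Atp13a3 read 37.29, 35.67 and 43.55 FPKM in wild-type colons and 35.07, 31.26 and 36.59 in knockout. That it shares the highest and lowest library of Myc likewise follows from the choice.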

How the data were processed

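Poly-A RNA sequencing of 6 distal colon samples was used, grouped by their genotype label and numbered as in their titles. The authors deposited FPKM values with 1 column per library for 19844 genes. HISAT2, RSEM and the mm39 build appear in the submitters' processing notes. No source used here gives their versions or any filter. The series design gives 3 mice per group.

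Gene names and lengths came from the file, a RefSeq table (GRCm38.p6, 19794 identifiers matched) and GENCODE M21, and 27 symbols stored as dates were restored. Depth was estimated from 383 non-coding genes of up to 150 bases, where between 84.1% and 89.2% of values per library lay within 0.05 of whole fragments. It assumes a length offset of 36 bases and is an estimate, as are the fragments per gene.

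The 13247 genes that reached 1 FPKM in 3 or more libraries were tested with limma 3.58.1 in R 4.3.3 on log2(FPKM + 1), with genotype as the sole term, a mean-variance trend, two-sided p and Benjamini-Hochberg adjustment over all of them at 0.05. The pipeline was tested on simulated data. The rule for named genes took the 10 members, up to 3 genes of smallest p in each fixed list, and the 5 nearest profiles of Mlxipl and Myc. A gene that the rule takes is not reported here. The members and lists were chosen with earlier results of these data known. Alternatives varied the pseudocount, filter, scaling, spread model, gene set and libraries. Tables and figures were made with Python 3.11.15, pandas 2.3.3, numpy 2.4.6 and matplotlib 3.10.9.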

Additional observations from a re-analysis of the deposited data

How the results depend on the processing

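None of the 10 network genes passed the limma threshold in any of the 18 alternatives (17 for Mxd3, which a minimum of 5 FPKM removed), and Mlxipl stayed lower in knockout in all 18. Its log2 fold change lay between -0.60 and -0.30 when single libraries were left out and between -0.56 and -0.44 otherwise. The direction of Mxd1 turned with array weights (log2 fold change -0.034) and without wild-type replicate 3 (from -0.070 to 0.13 with single libraries left out), and that of Mnt without wild-type replicate 2 (0.14). With single libraries left out, Mxd4 lay between 0.033 and 0.12, Mxi1 between -0.23 and -0.10 and Mxd3 between 0.15 and 0.41. The cause was not tested. The count of genes called by limma, 2 in the main comparison, was 0 with a minimum of 5 FPKM, 0 among genes with an mRNA (NM) transcript only, and between 0 and 0 with each library left out. At an unadjusted p under 0.05 limma found 321 and 430 genes in the first 2 of these and 314 to 802 without a library. Libraries numbered 1 deviated together (correlation across genes 0.27), whereas those numbered 2 and 3 did not exceed 0.1 (-0.10 and 0.06). The numbers were therefore not taken to pair the mice. Differently numbered libraries ranged from -0.29 (wild-type replicate 3 with knockout replicate 1) to 0.25 (wild-type replicate 3 with knockout replicate 2). With the number as a replicate block, 0 genes were called by limma (504 at an unadjusted p under 0.05). In this balanced layout the block cannot change a fold change, so that of Mlxipl stayed at -0.48 by design. Its SE went from 0.18 to 0.12 and its limma unadjusted p from 0.0258 to 0.00664, at a limma adjusted p of 0.993. Counting error limits Mxd3 in particular, and 3 mice per group limit every comparison.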

Other observations

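The profiles nearest to the remaining network genes, chosen after their values were seen and given with no test, were of differing kinds. The nearest 5 genes to Mnt over the 6 libraries included Apbb1ip (7.68, 10.74 and 5.50 FPKM in wild type, then 7.94, 7.46 and 7.32 in knockout), Rgs19 and the lymphocyte GTPase gene Gimap6 (10.45, 13.46 and 6.97, then 11.04, 9.13 and 8.86). All 3 were highest in wild-type replicate 2 and lowest in wild-type replicate 3, as Mnt was, which follows from their choice by likeness. The profile nearest to Mlx was that of Sdhd, a subunit of the respiratory chain, at a root mean square distance of 0.0186, with 115.75, 112.55 and 124.23 FPKM in wild type and 112.39, 123.38 and 100.41 in knockout. Egln2, an oxygen-sensing prolyl hydroxylase, was nearest to Mxd1 at 0.0228, and Tigar, a regulator of glycolysis, nearest to Mlxip at 0.0318.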
